A study of Arabidopsis thaliana with 6 samples.

Results

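In the leaf library of the Arabidopsis mutant nrpe1 and in that of idn2, 118 genes gave far less mRNA than in wild type (WT). The same genes stood near the WT level in the library of a triple mutant that also carries the idn2 allele. Among the 118 were genes of ethylene response factors, WRKY and zinc finger transcription factors, ubiquitin ligases, and enzymes of hormone and cell wall metabolism, several of them known from rapid stress responses. The genes were picked from 32947 measured genes by their levels as log2(RPKM + 1), where RPKM counts reads per kilobase of gene span, corrected for library size. Each had to lie at least 1.0 below both WT libraries in nrpe1 (true of 2.13% of tested genes) and in idn2 (1.49%), and less than 0.5 below the mean of the WT libraries in the triple mutant. The levels in nrpe1, idn2, the triple mutant and WT therefore chose the genes, and are given as a description with no test. The double mutant played no part in the choice.

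The study measured mRNA in leaves of 3-week-old plants grown in constant light, with the Illumina TruSeq mRNA protocol, in 6 libraries. There was 1 library each of nrpe1 (allele nrpe1-11), idn2 (idn2-1), the triple mutant (idn2-1, idnl1-1 and idnl2-1) and the double mutant (idnl1-1 and idnl2-1). There were 2 of WT, and all are in the ecotype Columbia-0. With 1 library per mutant, genotype cannot be told apart from the plants or the handling of that library. RNA-directed DNA methylation, the pathway these mutants affect, silences transposons and some genes. NRPE1 is the catalytic subunit of RNA polymerase V, an enzyme that makes the noncoding transcripts that small RNAs pair with, and IDN2 is an RNA-binding protein that acts in a complex with its relatives IDNL1 and IDNL2. Early stress-response genes are known for a different reason: their mRNAs are short-lived and accumulate within minutes of touch, wounding, cold or pathogen signals, and many encode the transcription factors and ubiquitin ligases that shape the later response.

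Depth differed between libraries. As recovered from the steps of the RPKM values, it was 3078153 reads in nrpe1, 2884772 in idn2, 2793873 in the triple mutant, 5819494 in the double mutant, and 2737943 and 5975802 in WT replicates 1 and 2. In the deeper pair of libraries (the double mutant and WT replicate 2) abundant genes had lower RPKM: the highest RPKM was 474 in nrpe1, 498 in idn2, 485 in the triple mutant and 267 in the double mutant, against 502 and 259 in WT. Whether that pair was made as another batch is not given, so in the double mutant genotype and depth cannot be told apart except against WT replicate 2. Of the mutated genes, IDNL1 (AT1G15910) had 4.67 RPKM in nrpe1, 4.61 in idn2, 0.187 in the triple mutant, 0.316 in the double mutant, and 4.86 and 6.37 in WT. NRPE1 (AT2G40030) had 4.92 RPKM in nrpe1, 2.94 in idn2, 2.53 in the triple mutant, 4.40 in the double mutant, and 2.14 and 3.72 in WT, and IDN2 (AT3G48670) had 15.8 RPKM in nrpe1, 12.4 in idn2, 14.8 in the triple mutant, 16.5 in the double mutant, and 18.0 and 17.1 in WT. IDNL2 (AT4G00380) had 18 reads in nrpe1, 15 in idn2, 5 in the triple mutant, 11 in the double mutant, and 14 and 46 in WT. Reads over a whole gene do not check alleles that leave part of the transcript, so the names nrpe1 and idn2 rest on the labels. Leaf mesophyll markers (6 genes, among them RBCS1A and RCA) summed to 1283 RPKM in nrpe1, 1371 in idn2, 1336 in the triple mutant, 775 in the double mutant, and 1363 and 751 in WT, and none was at 0 reads. A list of 3 root genes summed to 6.03 RPKM in nrpe1, 6.15 in idn2, 5.61 in the triple mutant, 8.10 in the double mutant, and 5.08 and 6.64 in WT; most of it was PHO1, a phosphate exporter of the vasculature, and the root hair regulator RHD6 was at 0 reads in every library. Floral organ identity genes (5 genes) summed to 13.3 RPKM in nrpe1, 4.06 in idn2, 2.56 in the triple mutant, 2.52 in the double mutant, and 4.40 and 6.46 in WT, so nrpe1 held the most; their part in the levels below was not tested.

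Together the 118 genes took 0.165% of all reads in nrpe1 and 0.202% in idn2, 0.692% in the triple mutant and 0.594% in the double mutant, against 0.746% and 0.744% in WT. Their median level was 6.06 RPKM in nrpe1, 6.62 in idn2, 25.8 in the triple mutant, 24.4 in the double mutant, and 25.3 and 31.3 in WT. The choice itself placed each of the 118 genes lower in nrpe1 and idn2 than in WT and the triple mutant. Only the double mutant was free to differ, and each gene was lower in nrpe1 and idn2 than there as well. In leaf samples of this kind, fewer cells that express a gene and less RNA per cell cannot be told apart. On the log2(RPKM + 1) scale, which understates the change of low genes, the median difference from the WT mean was -1.88 in nrpe1 (range -4.38 to -1.12), -1.72 in idn2 (-3.85 to -1.01), -0.15 in the triple mutant (-0.49 to 1.38) and -0.27 in the double mutant (-1.05 to 1.16). Over the 22362 genes tested, those that reached 1 RPKM in some library, the medians were 0.02, -0.02, -0.05 and 0.04 in the same order. As a ratio of RPKM, the mean of WT was 2.33 to 26.1 times the nrpe1 level (median 4.51) and 2.19 to 19.2 times the idn2 level (median 3.83), and 44 of the 118 genes were at least 4-fold below the WT mean in both. The WT libraries differed by a median of 0.15 over these genes and by the same over all tested genes; with median-of-ratios scaling the first of these was -0.04. Within the shallower libraries, nrpe1, idn2 and the triple mutant differed from WT replicate 1 by medians of -1.80, -1.59 and -0.10; within the deeper pair the double mutant differed from WT replicate 2 by -0.33. All 118 genes passed the filter on low values, and 1 of them, AT4G02170, had under 10 reads in every library.

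**Figure D1:**
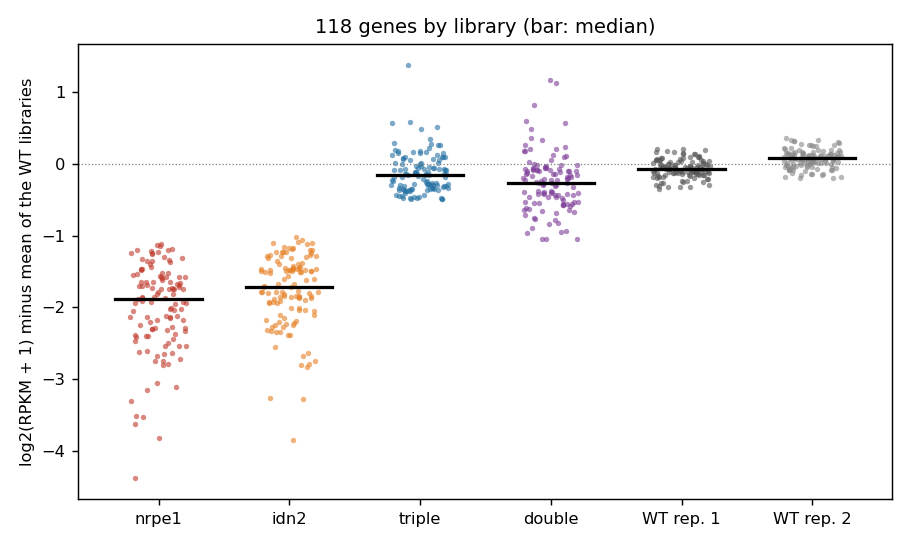
Difference of log2(RPKM + 1) from the mean of the WT libraries for each of the 118 genes (points) in the 6 libraries (x axis), with the median as a black bar. The medians are -1.88 in nrpe1 and -1.72 in idn2, -0.15 in the triple mutant and -0.27 in the double mutant; the WT libraries scatter around 0.

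On the log2(RPKM + 1) scale the gene farthest below WT in both single mutants was PHI-1 (AT1G35140, chr1:12851975-12853106 in TAIR8), a secreted phosphate-responsive protein also known as EXORDIUM-LIKE 1, which is linked to growth under carbon starvation. PHI-1 had 3.69 RPKM in nrpe1, 5.76 in idn2, 76.6 in the triple mutant, 49.7 in the double mutant, and 97.0 and 95.9 in WT. These levels rest on 12 reads in nrpe1, 18 in idn2, 244 in the triple mutant, 328 in the double mutant, and 303 and 651 in WT. The nrpe1 and idn2 libraries lay 26.1-fold and 16.8-fold below the WT mean, whereas the triple mutant lay nearer to WT, under both WT libraries. CYP707A3 (AT5G45340, chr5:18385869-18388218), an abscisic acid 8'-hydroxylase that breaks the hormone down, had 0.821 RPKM in nrpe1, 1.17 in idn2, 21.2 in the triple mutant, 16.9 in the double mutant, and 18.9 and 21.04 in WT. Only 5 and 7 reads fell on it in nrpe1 and idn2, against 140 in the triple mutant, and the triple mutant was above both WT libraries. SOB5 (AT5G08150, chr5:2622031-2622721), a suppressor of phytochrome B mutant phenotypes, had 0.932 RPKM in nrpe1, 0.993 in idn2, 10.3 in the triple mutant, 4.95 in the double mutant, and 10.5 and 12.3 in WT. Here nrpe1 and idn2 had 1 read each, and the double mutant lay well under both WT libraries.

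Ubiquitin ligases and membrane proteins were also among the 25 genes lowest in both single mutants relative to the nearer WT library. CNI1 (AT5G27420, chr5:9684075-9685564), a RING ligase of the carbon and nitrogen response, had 2.59 RPKM in nrpe1, 2.76 in idn2, 16.4 in the triple mutant, 18.8 in the double mutant, and 19.9 and 22.2 in WT. CMPG1 (AT1G66160, chr1:24640859-24642271), a U-box ligase first known as an elicitor-response gene, had 3.64 RPKM in nrpe1, 4.13 in idn2, 20.8 in the triple mutant, 17.1 in the double mutant, and 19.9 and 33.4 in WT. KMD1 (AT1G80440, chr1:30246499-30247963), a kelch-repeat F-box protein that targets cytokinin response regulators for breakdown, had 15.6 RPKM in nrpe1, 31.6 in idn2, 117 in the triple mutant, 94.0 in the double mutant, and 155 and 138 in WT. In each of these 3 genes nrpe1 and idn2 lay below the double mutant too, and below WT and the triple mutant by the choice. SYP122 (AT3G52400, chr3:19436612-19438119), a plasma membrane syntaxin of secretion and defence, had 8.11 RPKM in nrpe1, 8.41 in idn2, 31.2 in the triple mutant, 23.5 in the double mutant, and 40.2 and 48.8 in WT. AT2G27080 (chr2:11573366-11574582), annotated in the hydroxyproline-rich glycoprotein family of late embryogenesis abundant proteins, had 3.96 RPKM in nrpe1, 5.36 in idn2, 30.3 in the triple mutant, 19.5 in the double mutant, and 41.6 and 41.7 in WT; its span overlaps AT2G27090, so reads cannot be assigned to either gene. AT1G66090 (chr1:24605809-24608426), a TIR-NBS disease resistance protein, had 2.82 RPKM in nrpe1, 3.54 in idn2, 21.8 in the triple mutant, 21.7 in the double mutant, and 21.7 and 23.7 in WT. BT5 (AT4G37610, chr4:17670475-17672347), a BTB and TAZ domain protein whose span overlaps AT4G37608, had 5.84 RPKM in nrpe1, 5.68 in idn2, 26.1 in the triple mutant, 33.3 in the double mutant, and 29.3 and 35.5 in WT. The double mutant was below both WT libraries in SYP122 and AT2G27080 and lay between them in BT5.

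Several of the 25 have little or no role described in the annotation. AT5G25240 (chr5:8746608-8747200), annotated only as a stress-induced protein, had 5.97 RPKM in nrpe1, 5.79 in idn2, 35.3 in the triple mutant, 25.4 in the double mutant, and 47.6 and 44.4 in WT. AT3G19680 (chr3:6840287-6842326), of a family named DUF1005, had 25.4 RPKM in nrpe1, 28.7 in idn2, 135 in the triple mutant, 91.3 in the double mutant, and 147 and 130.3 in WT. AT3G10930 (chr3:3420135-3420837), uncharacterised, had 2 reads in nrpe1, 0 in idn2, 16 in the triple mutant, 29 in the double mutant, and 17 and 39 in WT, so its level in the single mutants rests on 2 reads and 0. AT2G20670 (chr2:8918941-8920615), annotated as a putative sugar phosphate exchanger (DUF506), had 16.7 RPKM in nrpe1, 15.6 in idn2, 91.5 in the triple mutant, 75.9 in the double mutant, and 134 and 103 in WT. In AT5G25240, AT3G19680 and AT2G20670 both single mutants were also below the double mutant, which the choice did not use. AT2G32200 (chr2:13683565-13684308), annotated as a cysteine-rich transmembrane domain protein, had 1.30 RPKM in nrpe1, 1.38 in idn2, 9.52 in the triple mutant, 5.98 in the double mutant, and 9.71 and 10.5 in WT, on 2 reads in each single mutant. AT1G07135 (chr1:2189927-2190658), a glycine-rich protein, had 9.67 RPKM in nrpe1, 13.6 in idn2, 69.2 in the triple mutant, 59.4 in the double mutant, and 70.1 and 57.8 in WT. Among all 118 genes, 13 are annotated as uncharacterised or hypothetical; 1 of these, RAV1, is a well-known transcription factor under that description.

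Promoters are shown because the 118 genes share a pattern across libraries and because early stress genes are known for short upstream elements. The sequence just upstream of the annotated start was read from RefSeq's TAIR10.1 genome for 117 of the 118 genes; AT1G18380 was not matched. CGCGTT, the core of the rapid stress response element bound by calmodulin-binding CAMTA factors, was found on either strand within 250 bases upstream in 15 of 117 genes (12.8%), against 2.76% of the 20169 tested protein-coding genes and 3.06% of 98 genes that were low in nrpe1 and idn2 but also lower in the triple mutant. The shares were 15.4%, 4.81% and 7.14% within 500 bases, and 26.5%, 8.89% and 12.2% within 1000 bases. These windows were not trimmed at neighbouring genes. The last 150 bases before the start are printed below, 5′ to 3′ on the gene's own strand in TAIR10.1, for the 3 genes among the 25 lowest with CGCGTT there and for 2 of the other genes with a pair of matches; capitals mark CGCGTT or its reverse complement.
PHI-1 (chr1:12851833-12851982, plus strand): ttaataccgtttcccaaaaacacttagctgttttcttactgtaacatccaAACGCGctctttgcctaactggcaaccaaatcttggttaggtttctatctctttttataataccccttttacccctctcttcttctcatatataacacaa
AT1G66090 (chr1:24601883-24602032, plus strand): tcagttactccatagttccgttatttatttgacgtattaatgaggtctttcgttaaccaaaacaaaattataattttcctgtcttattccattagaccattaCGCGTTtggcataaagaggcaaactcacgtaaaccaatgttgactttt
CMPG1 (chr1:24637046-24637195, plus strand): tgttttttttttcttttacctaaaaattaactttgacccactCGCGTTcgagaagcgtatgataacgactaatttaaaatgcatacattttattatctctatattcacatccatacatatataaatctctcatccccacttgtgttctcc
AT1G63750 (chr1:23650690-23650839, plus strand): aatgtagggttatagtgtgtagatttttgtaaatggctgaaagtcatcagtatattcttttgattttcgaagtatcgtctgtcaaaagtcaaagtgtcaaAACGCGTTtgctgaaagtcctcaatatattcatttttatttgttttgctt
EXLA3 (chr3:16892552-16892701, plus strand): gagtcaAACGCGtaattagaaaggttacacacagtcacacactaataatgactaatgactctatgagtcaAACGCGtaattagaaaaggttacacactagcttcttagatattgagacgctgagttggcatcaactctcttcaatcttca

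In AT1G63750 the pair of matches is the palindrome AACGCGTT read on both strands, so it is 1 place; in EXLA3 (an expansin-like cell wall protein) the matches lie in 2 separate places within a repeated stretch. AT1G63750 (chr1:23654511-23659026), a TIR-NBS-LRR disease resistance protein, had 1.71 RPKM in nrpe1, 2.66 in idn2, 6.97 in the triple mutant, 6.47 in the double mutant, and 8.31 and 10.5 in WT. EXLA3 (AT3G45960, chr3:16903741-16904885) had 1.12 RPKM in nrpe1, 1.198 in idn2, 5.26 in the triple mutant, 4.03 in the double mutant, and 4.42 and 5.38 in WT, on 3 reads in each single mutant. PHI-1, AT1G66090 and CMPG1 are described above. Of 20 transcription factor genes of the ERF, WRKY, zinc finger, MYB and NAC lists, 0 held CGCGTT within 500 bases, where 4.81% of tested protein-coding genes do; 20 genes are too few to read a difference from this. Genes with CGCGTT within 500 bases (18) had median differences from WT of -1.87 in nrpe1, -1.50 in idn2, -0.19 in the triple mutant and -0.53 in the double mutant; the 99 without it had -1.88, -1.78, -0.15 and -0.23.

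TTGAC, the core of the W-box bound by WRKY factors, was found within 250 bases in 64.1% of the 117 genes, in 61.2% of the 98 others and in 44.6% of tested protein-coding genes. SZF1 and SYP122, both among the 25 lowest genes, had 3 matches each within the last 150 bases, and none of the 117 genes had more. AT1G63750, printed above, has as many. Among the genes with that number, SZF1 and SYP122 are shown for their larger falls, ranked as for the 25. Capitals again mark the motif or its reverse complement GTCAA.
SZF1 (chr3:20776070-20776219, plus strand): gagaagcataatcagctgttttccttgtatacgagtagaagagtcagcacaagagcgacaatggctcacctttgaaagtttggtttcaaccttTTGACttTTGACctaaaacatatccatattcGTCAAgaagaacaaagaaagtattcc
SYP122 (chr3:19427231-19427380, minus strand): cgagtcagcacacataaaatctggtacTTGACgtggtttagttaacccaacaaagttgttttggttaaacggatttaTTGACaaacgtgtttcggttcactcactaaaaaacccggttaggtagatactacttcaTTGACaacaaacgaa

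The remaining motifs were searched on both strands within 250 bases. CACGTG (G-box) was in 5.98% of the 117 genes and 7.29% of tested protein-coding genes, CCGAC (the core of the dehydration-responsive element) in 13.7% and 12.9%, and GCCGCC (GCC-box) in 4.27% and 1.92%. AAATATCT (evening element) was in 4.27% and 5.03%, GAANNTTC (heat shock element core) in 15.4% and 9.34%, and TATCCA (sugar-repressed element) in 17.9% and 14.3%. A match is a stretch of letters, not a known binding site. Matches of different motifs were counted separately, also where they overlap.

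The choice did not ask about gene structure. RPKM divides reads by the whole gene span, though, so span enters the levels on which the choice rests. What this adds to the shares below was not tested. Of the 117 matched genes, 76 (65.0%) have a single exon, against 39.8% of the 98 others low in both single mutants, 18.3% of tested protein-coding genes and 15.1% of the 11373 of those with a WT mean of at least 10 RPKM. At most 2 exons were found in 82.1% of the 117, against 32.4% of tested protein-coding genes. Their median span was 1268 bases, against 2064. The 118 genes were spread over all chromosomes, with 37, 15, 25, 16 and 25 on chromosomes 1 to 5. Next to each other in gene order were AT1G25550 and TEM1 (3584 bases apart), AT5G61590 and ERF104 (1062 bases apart), and AT3G19680 and AT3G19690, whose spans overlap by 100 bases. In all, 13 of the 118 (11.0%) overlap another gene, as do 10.6% of all genes.

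**Figure D2:**
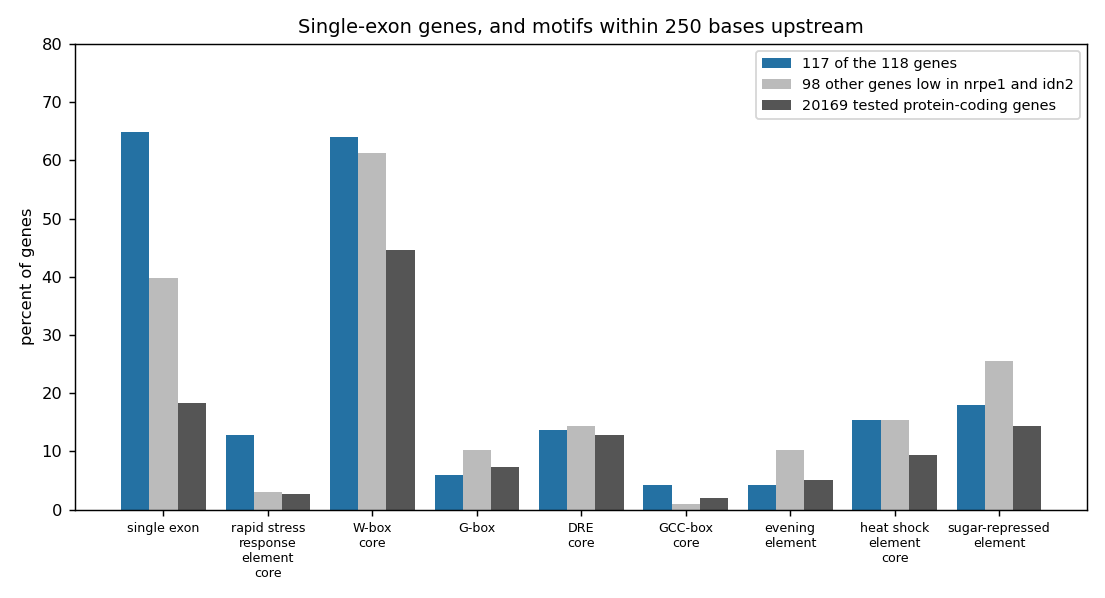
Percent of genes (y axis) with a single exon, and with each of 8 motifs within 250 bases upstream of the start, for 117 of the 118 genes (blue), 98 other genes low in nrpe1 and idn2 (light grey) and 20169 tested protein-coding genes (dark grey). In percentage points, the widest gaps between blue and dark grey are in single-exon genes (65.0% against 18.3%), the W-box core (64.1% against 44.6%) and CGCGTT (12.8% against 2.76%).

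Transcription factors of the AP2/ERF family, which carry a DNA-binding domain of plants, made up 11 of the 118 genes by product names in the reference annotation. TEM1, annotated as an AP2/B3 factor, is not among these 11. The share of such names over all genes was not counted, so nothing is read from this number. On a list of 26 ERF and DREB genes, 7 were among them. Over all measured genes the share is 0.358%. The lists were chosen with earlier results of these data known, so nothing is read from this or the list counts below. ERF104 (AT5G61600, chr5:24783612-24784656), an ethylene response factor known as a partner of the immune kinase MPK6, had 4.31 RPKM in nrpe1, 9.19 in idn2, 68.8 in the triple mutant, 68.9 in the double mutant, and 61.9 and 66.6 in WT. ERF105 (AT5G51190, chr5:20817810-20818642), known from cold responses, had 3.09 RPKM in nrpe1, 11.1 in idn2, 71.9 in the triple mutant, 65.5 in the double mutant, and 56.4 and 56.6 in WT. DREB26 (AT1G21910, chr1:7696525-7697688), of the dehydration-responsive element binding group, had 7.74 RPKM in nrpe1, 18.6 in idn2, 70.6 in the triple mutant, 54.4 in the double mutant, and 102 and 94.7 in WT. In ERF104 and ERF105 both the triple and the double mutant were above both WT libraries, while in DREB26 both were below. ERF5, which acts in chitin and ethylene responses, had 2.16 RPKM in nrpe1, 5.18 in idn2, 16.1 in the triple mutant, 29.7 in the double mutant, and 14.3 and 18.9 in WT. ERF11, a repressor of ethylene synthesis genes, had 2.98 RPKM in nrpe1, 2.47 in idn2, 8.74 in the triple mutant, 7.57 in the double mutant, and 8.55 and 13.9 in WT, and ORA47, an activator of jasmonate and abscisic acid synthesis, had 3.15 RPKM in nrpe1, 5.98 in idn2, 16.2 in the triple mutant, 13.0 in the double mutant, and 18.1 and 29.2 in WT. ERF13 had 4 reads in nrpe1, 3 in idn2, 14 in the triple mutant, 52 in the double mutant, and 21 and 36 in WT. Off the list, AT5G61590, next to ERF104, had 34.1 RPKM in nrpe1, 41.8 in idn2, 146 in the triple mutant, 117 in the double mutant, and 171 and 138 in WT.

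The other 19 genes of that list were not all alike. ERF6 had 2.47 RPKM in nrpe1, 1.31 in idn2, 14.6 in the triple mutant, 19.0 in the double mutant, and 22.5 and 25.7 in WT, and ERF1A had 6.64 RPKM in nrpe1, 4.05 in idn2, 15.3 in the triple mutant, 18.7 in the double mutant, and 22.7 and 24.7 in WT; both were low in nrpe1 and idn2, but lay 0.68 and 0.60 below WT in the triple mutant on the log2 scale and so were left out. CBF3, a cold-response activator, rose by 2.28 in nrpe1 (limma over all genes, adjusted p = 0.00416; 0.666% of tested genes passed as higher there), with 13.8 RPKM in nrpe1, 6.05 in idn2, 3.90 in the triple mutant, 6.03 in the double mutant, and 1.59 and 2.57 in WT. Of the whole list, 10 genes passed limma as lower in nrpe1 and 10 in idn2, against 2.59% and 1.41% of all tested genes. As higher, 2 passed in nrpe1, CBF3 among them, and 0 in idn2, against 0.666% and 0.246%. The list's 7 chosen genes are among those counted, so nothing is read from these counts. Against WT, 0 genes of the list passed in the triple mutant, where 0.228% of tested genes passed as lower and 0.0715% as higher, and 1 (DREB26) passed in the double mutant. The list's median difference was -0.65 in nrpe1, -0.74 in idn2, -0.19 in the triple mutant and 0.12 in the double mutant.

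WRKY factors, regulators of defence genes, contributed 5 of a list of 22. WRKY18 (AT4G31800, chr4:15383207-15385035) had 5.28 RPKM in nrpe1, 5.62 in idn2, 23.0 in the triple mutant, 17.1 in the double mutant, and 29.6 and 29.6 in WT. WRKY33, needed for resistance to necrotrophic fungi, had 14.2 RPKM in nrpe1, 11.8 in idn2, 51.9 in the triple mutant, 46.3 in the double mutant, and 42.6 and 50.6 in WT; its span overlaps AT2G38480. WRKY40, a partner of WRKY18, had 1.96 RPKM in nrpe1, 2.46 in idn2, 9.0 in the triple mutant, 8.88 in the double mutant, and 9.98 and 12.0 in WT, with 10 and 12 reads in nrpe1 and idn2 and a span that overlaps AT1G80850. In WRKY18 and WRKY40 the triple and the double mutant lay below both WT libraries, and in WRKY33 the triple mutant lay above them. WRKY53, a regulator of leaf senescence, had 11.2 RPKM in nrpe1, 11.3 in idn2, 30.7 in the triple mutant, 22.9 in the double mutant, and 29.3 and 35.1 in WT, and WRKY22, of flagellin signalling, had 2.39 RPKM in nrpe1, 4.68 in idn2, 9.44 in the triple mutant, 7.74 in the double mutant, and 10.5 and 13.6 in WT. Of the 17 others, WRKY15 fell by 1.30 in nrpe1 (limma adjusted p = 6.01e-06) and by 0.88 in idn2 (0.0188). WRKY70, of salicylic acid signalling, fell by 0.79 (0.0268) and by 1.01 (0.00186). WRKY48, low in both single mutants, missed the triple threshold by little, at 0.51 below the WT mean.

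Zinc finger proteins of the ZAT, AZF and SZF lists, most of them stress-induced repressors, gave 5 of 13. SZF1 (AT3G55980, chr3:20787274-20789821), a CCCH zinc finger protein of salt and immune responses, had 13.1 RPKM in nrpe1, 18.6 in idn2, 103 in the triple mutant, 79.5 in the double mutant, and 88.1 and 87.6 in WT. ZAT10 (AT1G27730, chr1:9648128-9649060), also called salt tolerance zinc finger, had 12.4 RPKM in nrpe1, 10.7 in idn2, 57.3 in the triple mutant, 65.1 in the double mutant, and 49.95 and 58.6 in WT. ZAT12, of oxidative stress and cold, had 3.94 RPKM in nrpe1, 4.21 in idn2, 24.3 in the triple mutant, 24.5 in the double mutant, and 14.2 and 20.8 in WT. The triple mutant was above both WT libraries in SZF1 and ZAT12 and between them in ZAT10. AZF2 had 5.12 RPKM in nrpe1, 6.42 in idn2, 13.9 in the triple mutant, 12.8 in the double mutant, and 15.2 and 20.1 in WT, and AZF1 had 4 reads in nrpe1, 4 in idn2, 10 in the triple mutant, 15 in the double mutant, and 13 and 28 in WT. Of MYB and NAC stress regulators, 3 of 9 were among the 118. MYB73 (AT4G37260, chr4:17540484-17541793, overlapping AT4G37270) had 21.1 RPKM in nrpe1, 20.4 in idn2, 99.5 in the triple mutant, 82.9 in the double mutant, and 111 and 106 in WT. MYB77, which modulates auxin responses, had 30.8 RPKM in nrpe1, 32.0 in idn2, 138 in the triple mutant, 106 in the double mutant, and 118 and 110.2 in WT. RD26, a NAC factor of abscisic acid and dehydration, had 9.91 RPKM in nrpe1, 22.5 in idn2, 54.2 in the triple mutant, 58.3 in the double mutant, and 70.1 and 71.3 in WT. MYB44, a close relative of MYB77, fell by 1.03 in nrpe1 (limma adjusted p = 0.0355) and had a difference of -1.01 in idn2 (0.0719).

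Hormone and cell wall genes were fewer. ACS6 (AT4G11280, chr4:6864093-6866112), an ACC synthase of stress ethylene, was the only chosen gene of 12 in ethylene synthesis and had 14.5 RPKM in nrpe1, 18.8 in idn2, 96.7 in the triple mutant, 81.8 in the double mutant, and 83.7 and 77.8 in WT. Of 26 jasmonate genes 2 were chosen. JAZ1 (AT1G19180, chr1:6622085-6623611), a repressor of jasmonate responses, had 11.0 RPKM in nrpe1, 9.66 in idn2, 26.4 in the triple mutant, 19.9 in the double mutant, and 24.6 and 35.8 in WT, and LOX4 (AT1G72520, chr1:27312177-27316416), a lipoxygenase at the start of jasmonate synthesis, had 3.56 RPKM in nrpe1, 3.31 in idn2, 14.3 in the triple mutant, 8.55 in the double mutant, and 16.9 and 18.4 in WT. In ACS6 the triple mutant was above both WT libraries, and in LOX4 both multiple mutants were below. JAZ7, also low in both single mutants, fell by 2.98 in nrpe1, by 3.33 in idn2 and by 2.39 in the double mutant. Its difference in the triple mutant was -1.64. JAZ7 had 1 read in nrpe1, 0 in idn2, 7 in the triple mutant, 7 in the double mutant, and 27 and 64 in WT. CYP707A3 was the only chosen gene of 11 on the abscisic acid list.

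TCH4 (AT5G57560, chr5:23324356-23325508), a touch-induced xyloglucan endotransglucosylase that remodels the cell wall, was 1 of 13 XTH genes and had 25.1 RPKM in nrpe1, 49.7 in idn2, 199.6 in the triple mutant, 131 in the double mutant, and 206 and 157 in WT. EXO, a secreted relative of PHI-1 that promotes growth under brassinosteroids, had 52.9 RPKM in nrpe1, 46.9 in idn2, 175 in the triple mutant, 118 in the double mutant, and 197 and 153 in WT. XT1, a xylosyltransferase of xyloglucan synthesis, had 22.8 RPKM in nrpe1, 20.1 in idn2, 44.5 in the triple mutant, 37.1 in the double mutant, and 52.6 and 55.9 in WT. Among the 12 XTH genes not chosen, XTH23 fell by 2.20 in nrpe1 and by 1.95 in idn2, and was 1.13 below WT in the triple mutant. XTH4, XTH24 and XTH31 were 0.09 to 0.37 above WT in nrpe1, and did not pass limma there.

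The calmodulin-like and calcium-dependent kinase list (14 genes), the MAP kinase list (7) and the clock list (12) held 0 of the 118. With 0.358% of all genes chosen, lists of this size are too small to read an absence from 0. Their median differences from WT in nrpe1 were -0.89, -0.06 and -0.31 in the same order. In idn2 they were -0.82, -0.25 and -0.09. CPK32, a calcium-dependent kinase, fell by 1.35 in nrpe1 (limma adjusted p = 9.35e-08) and by 1.04 in idn2 (0.000232) and lay 0.04 above WT in the triple mutant. It missed the choice in idn2, with a difference of -0.96 from the nearer WT library. TCH3, a calmodulin-like touch gene, fell by 0.87 (0.0124) and by 1.31 (8.88e-06). MKK9, a kinase that activates MPK3 and MPK6, fell by 1.31 in nrpe1 (2.66e-07) and by 0.74 in idn2 (0.0403). MPK3 and MPK6 themselves did not pass, with differences of -0.46 and -0.06 in nrpe1. Of clock genes, 4 passed as lower in nrpe1 (CCA1, GI, RVE8 and RVE1) and 0 in idn2; whether nrpe1 and idn2 differ in these was not tested.

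From the 11 genes of pattern-triggered immunity SYP122 was chosen, and from the 9 of salicylic acid defence CBP60g, a calmodulin-binding activator of salicylic acid synthesis, with 3.24 RPKM in nrpe1, 3.34 in idn2, 11.5 in the triple mutant, 14.1 in the double mutant, and 12.5 and 13.9 in WT. PR1, the standard marker of that hormone, rose by 2.67 in nrpe1 (limma adjusted p = 0.000296) and by 2.57 in idn2 (0.00109), and lay 1.04 below WT in the triple mutant. Of 16 heat shock genes, HSP70 (AT3G12580) had 20.1 RPKM in nrpe1, 18.1 in idn2, 68.5 in the triple mutant, 47.3 in the double mutant, and 66.6 and 70.8 in WT, and HSP90.1, another chaperone, had 8.79 RPKM in nrpe1, 6.36 in idn2, 24.4 in the triple mutant, 19.2 in the double mutant, and 21.8 and 26.8 in WT. HSFA2, a heat shock factor, fell by 2.70 in idn2 (2.09e-09) and was 0.99 below WT in nrpe1 (0.225). Of 13 sugar starvation genes PHI-1 and KMD1 were chosen. Another 5 of that list were low in both single mutants but also lower in the triple. Among them, DIN10 fell by 1.35 in nrpe1, by 2.56 in idn2 and by 2.03 in the triple mutant. TPS8 fell by 2.03, by 1.86 and by 1.00 in the same order. The levels in these libraries picked both genes, so no test is given. In all, 31 of the 118 genes were on 12 of these 15 lists and 87 on none.

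Genes off these lists covered other parts of leaf physiology. TEM1, a repressor of the flowering gene FT, had 20.0 RPKM in nrpe1, 20.1 in idn2, 60.7 in the triple mutant, 63.5 in the double mutant, and 75.7 and 81.5 in WT, and RAV1, its relative, had 20.6 RPKM in nrpe1, 39.4 in idn2, 97.5 in the triple mutant, 82.7 in the double mutant, and 122 and 101 in WT. AT1G25550, a myb-like factor next to TEM1, had 33.1 RPKM in nrpe1, 49.4 in idn2, 108 in the triple mutant, 79.1 in the double mutant, and 125 and 102 in WT. All 3 were lower in nrpe1 and idn2 than in the double mutant, which the choice did not use, with nrpe1 at or under idn2. LYK5, a LysM receptor kinase of chitin perception, had 6.32 RPKM in nrpe1, 5.36 in idn2, 14.2 in the triple mutant, 16.8 in the double mutant, and 15.5 and 18.8 in WT. HSPRO2, named after a nematode resistance gene of sugar beet, had 33.2 RPKM in nrpe1, 45.6 in idn2, 134 in the triple mutant, 109 in the double mutant, and 152 and 144 in WT. The ubiquitin ligases PUB26 and ATL2 had 18 and 13.4 RPKM in nrpe1 and 23.5 and 11.6 in idn2; in WT, PUB26 had 51.8 and 61.6 RPKM and ATL2 had 28.6 and 38.9.

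LBD38, a nitrate-responsive repressor of anthocyanin synthesis, had 39.2 RPKM in nrpe1, 40.3 in idn2, 97.8 in the triple mutant, 82.7 in the double mutant, and 94.4 and 88.5 in WT. LSU3, a marker of sulfur shortage, had 9 reads in nrpe1, 8 in idn2, 26 in the triple mutant, 69 in the double mutant, and 30 and 91 in WT. PKS1, a substrate of phytochrome in phototropism, had 22.2 RPKM in nrpe1, 27.6 in idn2, 47.1 in the triple mutant, 45.6 in the double mutant, and 57.2 and 63.7 in WT. IAA6, a repressor of auxin responses, had 3.08 RPKM in nrpe1, 4.78 in idn2, 10.5 in the triple mutant, 10.9 in the double mutant, and 13.5 and 16.2 in WT. As ratios of RPKM, the falls of LBD38 and PKS1 in idn2 were among the smaller ones, at 2.27-fold and 2.19-fold below the WT mean. GPAT3, a glycerol-3-phosphate acyltransferase, had 18.1 RPKM in nrpe1, 32.7 in idn2, 73.0 in the triple mutant, 63.6 in the double mutant, and 79.2 and 76.8 in WT, and its relative GPAT2 had 2.90 RPKM in nrpe1, 3.93 in idn2, 9.57 in the triple mutant, 10.08 in the double mutant, and 9.61 and 14.9 in WT. PHR1, which in the reference is a DNA photolyase and not the phosphate regulator of the same name, had 3.93 RPKM in nrpe1, 5.54 in idn2, 11.2 in the triple mutant, 11.8 in the double mutant, and 12.5 and 12.7 in WT.

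**Figure D3:**
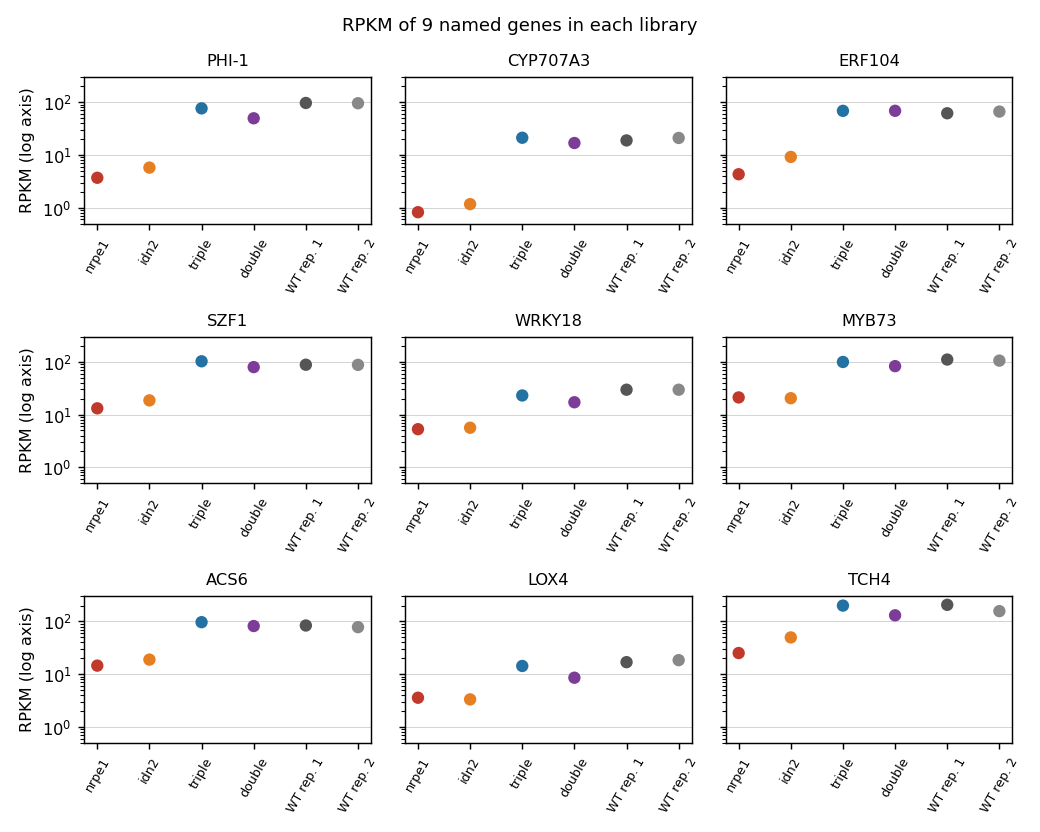
RPKM (y axis, log scale) of 9 of the 118 genes in each of the 6 libraries (x axis), 1 point per library. In each panel the nrpe1 and idn2 points lie below the other 4, which the choice required for all but the double mutant. PHI-1 has 3.69 and 5.76 RPKM in nrpe1 and idn2, against 97.0 and 95.9 in WT.

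In the triple mutant 23 of the 118 genes lay above both WT libraries, 28 between them and 67 below both. Over all tested genes 19% were above both and 39.2% below both. The rule bounded the triple mutant from below and not from above, so nothing is read from these counts. AT3G09870 (chr3:3027429-3027962), a small auxin-up RNA (SAUR) family gene, had the highest value against WT, 1.38 above the WT mean, with 2.41 RPKM in nrpe1, 5.14 in idn2, 39.8 in the triple mutant, 33.3 in the double mutant, and 11.5 and 18.7 in WT. AT1G22470, uncharacterised, had 1.199 RPKM in nrpe1, 1.28 in idn2, 8.58 in the triple mutant, 13.4 in the double mutant, and 4.71 and 6.21 in WT, with 1 read in each single mutant. PBP1, a calcium-binding partner of the kinase PINOID, had 6.71 RPKM in nrpe1, 4.55 in idn2, 40.3 in the triple mutant, 40.2 in the double mutant, and 22.6 and 31.9 in WT. AT4G27280, an EF-hand calcium-binding protein, had 26.6 RPKM in nrpe1, 40.8 in idn2, 191 in the triple mutant, 133 in the double mutant, and 148 and 122 in WT. In the first 3 of these the double mutant was also above both WT libraries, and in AT4G27280 it lay between them.

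The limits of the choice cut through a continuous range. Of 476 genes low in nrpe1 and 333 low in idn2, 219 were low in both, or 46.0% of the nrpe1 genes and 65.8% of the idn2 genes. The 118 are 53.9% of these 219; of the other 101 genes, 32 were at least 1.0 below both WT libraries in the triple mutant as well, a size that 0.595% of tested genes reached there. Just inside the triple limit lay AT2G44130, SYP122 and AT1G19020, at 0.492, 0.492 and 0.485 below the WT mean, and just outside lay OFP16, WRKY48 and AT1G54740, at 0.502, 0.508 and 0.512. In nrpe1, AT4G33420, ATL2 and AT1G04360 lay 1.01, 1.04 and 1.04 below the nearer WT library, while EXL5, AT1G49500 and LRX3 missed at 0.977, 0.976 and 0.919. In idn2, AAE12, WRKY22 and AT3G57740 lay at 1.00, 1.02 and 1.02, while GATL10, AT5G51790 and AT4G20820 missed at 0.984, 0.982 and 0.969.

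**Figure D4:**
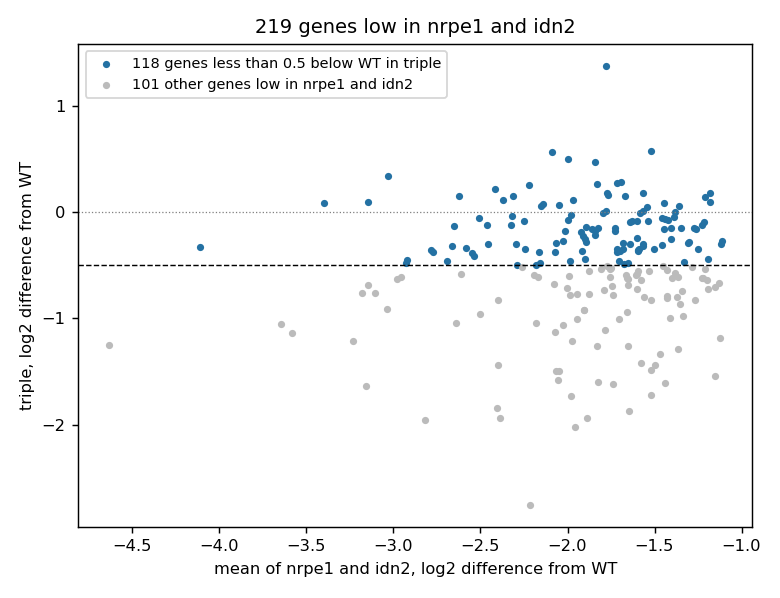
Difference from the WT mean on the log2(RPKM + 1) scale in the triple mutant (y axis) against the mean of the nrpe1 and idn2 differences (x axis) for the 219 genes low in both single mutants. Blue points are the 118 genes less than 0.5 below WT in the triple mutant (dashed line) and grey points the 101 others; the points run on across the line without a gap.

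The double mutant, which keeps IDN2 and which the choice did not use, lay nearer to WT than the single mutants did but below it in most of the 118 genes. In the double mutant 78 genes (66.1%) were below both WT libraries, 25 between them and 15 above both, where 20% of all tested genes were below both and 36.7% above both; of the 101 others, 95 were below both. Against WT replicate 2 alone, of the same depth, 99 of 118 (83.9%) were lower, as were 45.0% of all tested genes. The WT libraries entered the choice, which favours genes that happen to be high in them, and this part was not tested. Only AT2G27080 was at least 1.0 below both WT libraries in the double mutant, a size that 0.335% of tested genes reached.

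By limma over all 22362 genes with Benjamini-Hochberg adjustment, 4 of the 118 were lower in the double mutant, against 0.157% of all tested genes, and 0 were higher, against 0.188%. At an unadjusted p under 0.05 there were 25 of the 118, of which 4 were higher, against 2.72% of all tested genes in either direction. Limma-voom on the recovered reads called 5 lower and 0 higher. Its share over all tested genes is not given here, so nothing is read from the limma-voom counts. PHI-1 fell by 0.94 (SE 0.22, limma adjusted p = 0.00580), AT2G27080 by 1.05 (SE 0.26, 0.0226), DREB26 by 0.85 (SE 0.22, 0.0378) and SYP122 by 0.89 (SE 0.24, 0.0460). Each was below both WT libraries in its RPKM given above. The same fit left AT3G09870 short of the threshold at 1.13 above WT (SE 0.32, adjusted p = 0.0996). SOB5 and AT5G28630, a glycine-rich protein, had differences of -1.05 each, with adjusted p of 1.00 each, on 19 and 11 reads in the double mutant. With 1 library per mutant, the fit takes the spread from the WT pair and its trend over all genes. The labels do not tie that pair to separate plants, so a p-value measures only how these WT samples scatter. The pair spans the shallower and the deeper libraries, so its spread includes any effect of depth. Of these calls, that of PHI-1 and that of AT2G27080 ended without the intensity trend, and those of DREB26 and SYP122 also with a pseudocount of 0.25 or with no filter.

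The choice asked that nrpe1 and idn2 both be low and not that they differ. Of the 118 genes, 84 were lower in nrpe1 than in idn2 and 34 higher, with a median difference of -0.16, against -0.01 over all tested genes. Both libraries entered the choice, so these differences are a description. At least 1.0 apart on the log2 scale were 5 genes lower in nrpe1, a size reached by 0.809% of tested genes, and 1 gene higher, a size reached by 1.22%; nothing is read from these counts. ERF105 was 1.57 lower, at 3.09 RPKM in nrpe1 against 11.1 in idn2, or 7 reads against 26. DIC2 (AT4G24570, chr4:12686469-12687660), a mitochondrial dicarboxylate carrier, was 1.36 lower, with 7.02 RPKM in nrpe1, 19.6 in idn2, 87.0 in the triple mutant, 72.3 in the double mutant, and 77.0 and 79.1 in WT. DREB26 was 1.16 lower and RD26 1.11 lower, and AT1G25400, uncharacterised, was 1.00 lower on 5 reads in nrpe1 against 14 in idn2. AT5G19120 (chr5:6414490-6415909), an aspartyl protease family gene, was 1.12 higher in nrpe1, with 30.1 RPKM in nrpe1, 13.3 in idn2, 98.5 in the triple mutant, 92.4 in the double mutant, and 142 and 129 in WT. In these 6 genes both single mutants lay below WT and the triple mutant by the choice, and below the double mutant as well.

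**Figure D5:**
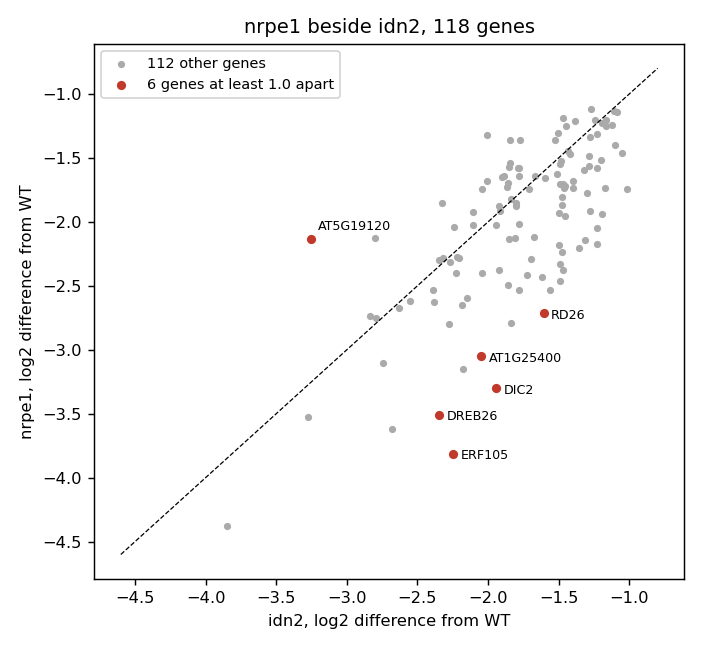
Difference from the WT mean on the log2(RPKM + 1) scale in nrpe1 (y axis) against idn2 (x axis) for the 118 genes; the dashed line marks equal differences. The 6 genes at least 1.0 apart between nrpe1 and idn2 are red and named; AT5G19120 lies above the line and the other 5 below it.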

How the data were processed

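The authors deposited RPKM for 32947 genes in each of 6 libraries; Bowtie is named, with no version, per the submitters' processing notes, and TAIR8 gene models per the file headers and names. How strand, multi-mapped reads and duplicates were handled: not given in the sources used here; overlapping genes share reads that cannot be assigned. In each library 100% of the values, times gene span, were whole multiples of 1 step (tolerance 1e-06 steps). The lowest multiple was 1, taken to be a read added everywhere (its origin is not stated), and was subtracted to give reads. These reads are not counts the authors deposited and served for depth and for the limma-voom alternative. TAIR8 positions were read as counting from 0, and 1 was added to start and stop. Symbols, products, exons and promoters came from RefSeq's TAIR10.1 by gene ID; 1 promoter sequence is not reported here.

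Analysis used log2(RPKM + 1), Python 3.11.15 with pandas 2.3.3, numpy 2.4.6 and matplotlib 3.10.9, and R 4.3.3 with limma 3.58.1: a mean per genotype with an intensity trend, the 22362 genes that reach 1 RPKM in some library, and a threshold of 0.05 on the Benjamini-Hochberg adjusted p. With 1 residual degree of freedom, from WT, and infinite prior degrees of freedom, the trend set each gene's spread, and mutant libraries are taken to vary like WT. The fit was run on simulated data with larger changes than those called in the double mutant, so that run does not bear on these calls. Among the 118 genes the comparison tested was the double mutant against WT; nrpe1 against idn2 is described without the planned limma test, since both libraries chose the genes. Comparisons against WT share the same WT libraries. Alternatives were other pseudocounts (0.25 and 4), filters, quantile and median-of-ratios scaling, limma-voom, no trend, other limits of the choice, and leaving out each WT library.

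Named were the 25 genes lowest in both single mutants, ranked by the smaller distance to the nearer WT library, genes on a list, those that passed limma in the double mutant, up to 8 highest in the triple mutant, those beside each limit and those next to each other; genes named off these rules (nutrient, light, flowering, chitin and lipid genes, ubiquitin ligases, EXO and XT1) were chosen after their values were seen, as was the limit of 1.0 between nrpe1 and idn2. The genes, lists (15 pathway lists with 214 genes, 4 marker lists) and motifs were chosen with earlier results of these data known. Precision is limited by depth: over 2 kb of gene span, 1 read equals 0.161 RPKM in nrpe1, 0.171 in idn2, 0.177 in the triple mutant, 0.0854 in the double mutant, and 0.180 and 0.0832 in WT.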

Additional observations from a re-analysis of the deposited data

How the results depend on the processing

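The number of genes chosen was 118, against 185 with a limit of 0.8 on the falls and 70 with a limit of 0.25 in the triple mutant; without 1 WT library it was 153 to 159, of which 114 and 102 were among the 118 without replicates 2 and 1. The count lower in the double mutant (4) became 2 with a pseudocount of 0.25, 2 with no filter, 12 with median-of-ratios scaling and 0 with no trend; the count higher (0) became 1 with quantile normalization and 2 with median-of-ratios scaling. Genes at least 1.0 below both WT libraries in the double mutant (1) became 4 with a pseudocount of 0.25, 0 with 4, 3 with quantile normalization and 4 with median-of-ratios scaling, and were 1 to 7 without a WT library (7 without replicate 1, 1 without replicate 2). The median difference of WT replicate 2 from replicate 1 turned to -0.035 with median-of-ratios scaling, against 0.15. The median of the double mutant against WT was -0.35 to -0.18 in the settings run. The causes were not tested. All 4 single-gene calls in the double mutant lost the threshold in at least 1 of 8 settings of the fit and 0 changed direction; over these settings the adjusted p of PHI-1 in the double mutant ran between 2.61e-06 and 0.735. Other settings for nrpe1 against idn2 were not run, since that comparison has no test here. No paired analysis was possible because each mutant has 1 library, so no groups share 2 replicate numbers. Limma could not be fitted without a WT library, since no residual degree of freedom is left.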
